A study of Mus musculus with 6 samples.

Results

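The genes described here are 10 myogenic regulators and markers of newly formed or regenerating skeletal muscle: Myod1, Myog, Myf5, Myf6, Pax7, Myh3, Myh8, Chrna1, Chrng and Ncam1. They were chosen by name as rows of the count table, and all 10 were found among its 48440 genes. The question was whether the muscle RNA in these samples looked mature or regenerating. RNA was sequenced from murine tissue entangled with engineered cartilage made from rabbit bone marrow mesenchymal stromal cells, 12 weeks after subcutaneous implantation. The cartilage was wrapped in a PCL/collagen nanofibrous membrane loaded with 0% or 3% axitinib, an inhibitor of VEGF receptor kinases, by weight of the polymers. All hosts were BALB/c nude mice, which lack a thymus and so most T cells, and all received a wrapped construct, so neither group was untreated tissue. The groups were 0%-Axitinib (3 samples, labelled as controls and read here as the membrane without the drug) and 3%-Axitinib (3 samples). A pair of constructs of one group shared each mouse in the study, and which samples came from which mouse is not given. Samples of a group may therefore share an animal, and the p-values below treat them as independent.

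Skeletal muscle is built and repaired from satellite cells, quiescent stem cells that carry the transcription factor Pax7. When they are activated, they express the myogenic regulatory factors Myf5 and Myod1, differentiate under Myog, fuse into fibres, and for a time make the embryonic and perinatal myosin heavy chains (Myh3 and Myh8) and the fetal acetylcholine receptor subunit (Chrng) before the adult isoforms take over. Myf6 is the regulatory factor that stays on in adult fibres, and denervation can switch Myog, Chrna1, Chrng and Ncam1 on again in mature fibres.

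The depth ranged from 9225518 to 18403795 counts on genes in a sample. At this depth the limit of detection, set to 3 counts, equalled between 0.156 and 0.329 CPM, counts scaled to the library size by the TMM method. Intervals and limits below cover counting error only, since the reads carry no molecular identifiers. Before the members, the amount of muscle RNA in each sample has to be known. The summed CPM of 28 mature fibre genes was 227, 41.2 and 75.3 in replicates 1, 2 and 3 of the 0%-Axitinib group, and 19362, 61.6 and 10941 in replicates 1, 2 and 3 of the 3%-Axitinib group. Replicates 1 and 3 of the 3%-Axitinib group thus held muscle RNA in quantity, while replicate 2 lay within the range of the 0%-Axitinib samples. Acta1, skeletal alpha-actin and the most abundant gene of the list per kilobase, had 35682 and 31979 counts in those 2 libraries and 1 count in replicate 2. In bulk tissue, more muscle cells and more RNA per muscle cell cannot be told apart. Of the 28 genes, 26 were tested and 23 met the study's criterion (fold change of at least 1.5 with an unadjusted p of at most 0.05, edgeR's quasi-likelihood test), all higher, and 0 had an adjusted p of at most 0.05, a count that became 7 of 27 without replicate 2 of the 3%-Axitinib group and was 0 with any other sample left out. The gene with the smallest p was Myoz1, a protein of the Z-disc, with 1.21 ± 1.23 and 77.2 ± 69.3 CPM (SD, n = 3) without and with the drug (log2 fold change 5.98, standard error 1.47, adjusted p = 0.0999). With limma-voom, 1 gene of the list met the criterion, and with a filter of at least 10 counts in every sample 8 did. Unmapped reads made up 48.4%, 29.2% and 16.8% of the reads in replicates 1, 2 and 3 of the 3%-Axitinib group and between 3.84% and 14.9% in the 0%-Axitinib group, and their part in the results was not tested.

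The myogenic regulatory factors were seen almost only in the libraries with muscle RNA. Myog (chr1:134289989-134292548 of GRCm38), which drives the differentiation of myoblasts, had 145, 0 and 31 counts in replicates 1, 2 and 3 of the 3%-Axitinib group and 0 counts in every 0%-Axitinib sample. Replicate 2 of the 3%-Axitinib group was therefore not distinguishable from the 0%-Axitinib samples, and the groups overlapped. Set against the 3 counts that the 0%-Axitinib group could hold undetected, Myog was at least 86.0-fold higher over the group, and 20.02-fold without replicate 1. This bound leaves out the counting error of Myog itself, with which the exact conditional interval (95%) of the ratio began at 69.2, and at 15.3 without replicate 1. Myod1 (chr7:46376474-46379099), the factor of myoblast commitment, had 43, 0 and 34 counts against 0, 0 and 2. It was present in the same libraries, and the groups overlapped through replicate 2. Its ratio between the groups was 56.4 with a counting interval (95%) from 15.1 to 474, and 32.9 without replicate 1 of the 3%-Axitinib group.

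Myf5 and Myf6 are neighbours on chromosome 10 (107482908-107486134 and 107492853-107494737). Myf5, an early factor of the lineage, had 11, 0 and 4 counts in the 3%-Axitinib samples and 0, 0 and 1 in the 0%-Axitinib samples, a ratio of 22.0 with an interval from 3.38 to 925. Without replicate 1 of the 3%-Axitinib group it was 7.75, and the interval (0.767 to 382) included 1. These are small numbers, and in replicate 3 the count barely passed the limit of detection. Myf6, the factor that persists in adult fibres, had 243, 0 and 116 counts against 1, 0 and 0. It was the most abundant member per kilobase in both libraries with muscle RNA, and its ratio between the groups was 526 with an interval from 93.8 to 20835 (225 without replicate 1). Pax7 (chr4:139737062-139833528), the satellite cell factor, had 16, 0 and 10 counts in the 3%-Axitinib samples and 0 in all 3 of the 0%-Axitinib samples. Against 3 counts over the 0%-Axitinib group it was at least 12.7-fold higher, while the exact interval of the ratio began at 9.61, and at 4.34 without replicate 1. The groups overlapped through replicate 2.

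The developmental myosins lie in the cluster of fast myosin genes on chromosome 11. Myh3, the embryonic heavy chain (67078300-67102291), had 7, 15 and 0 counts in the 0%-Axitinib samples and 110, 5 and 24 in the 3%-Axitinib samples. Replicate 2 of the 3%-Axitinib group (0.454 CPM) lay between replicates 1 and 2 of the 0%-Axitinib group (0.364 and 0.872 CPM), so the groups overlapped. It was one of the 2 members kept by the expression filter, with 0.412 ± 0.438 and 4.63 ± 6.45 CPM (SD, n = 3). Its log2 fold change of 3.46, with a standard error of 1.48, narrowly missed the criterion (unadjusted p = 0.0520, adjusted p = 0.216, edgeR's quasi-likelihood test). The log2 fold change was 1.18 without replicate 1 of the 3%-Axitinib group. The criterion was met with DESeq2's Wald test (3.49), with no expression filter (3.42), without replicate 2 of the 0%-Axitinib group (4.57) and without replicate 2 of the 3%-Axitinib group (3.99). With no filter and a second choice changed it was met in 9 of 12 cases, and not with limma-voom, the replicate block or without replicate 1 of the 3%-Axitinib group. Myh8, the perinatal heavy chain (67277124-67308634), had 0, 0 and 7 counts against 313, 0 and 107. It followed the muscle RNA in the 3%-Axitinib group and was at 0 in replicate 2, and its ratio between the groups was 87.9 with an interval from 42.3 to 220.02 (29.6 without replicate 1). The heavy chains are near-identical in long stretches. The count table keeps reads that mapped to several places (2.71% to 6.65% of all reads in a sample) and reads on more than 1 gene (3.55% to 5.74%) in lines of their own, so the counts of these genes lack such reads, and how many of them came from heavy chains is not known.

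Chrna1 (chr2:73563215-73580338), the alpha subunit common to the fetal and adult muscle acetylcholine receptor, had 7, 0 and 10 counts in the 0%-Axitinib samples and 102, 2 and 27 in the 3%-Axitinib samples. Replicates 1 and 3 of the 3%-Axitinib group were above all other samples, and the ratio between the groups was 11.3 (interval from 6.79 to 19.97), or 3.30 without replicate 1 of the 3%-Axitinib group. Chrng (chr1:87204657-87212694), the gamma subunit of the fetal receptor, had 14, 1 and 3 counts in the 3%-Axitinib samples and 0 in all 0%-Axitinib samples. It was the only member whose groups did not overlap, all 3%-Axitinib samples being higher, although 1 of the 3 values was a single count and another was at the limit of detection. Against 3 counts over the 0%-Axitinib group it was at least 8.79-fold higher, while the exact interval of the ratio began at 6.44, and at 1.28 without replicate 1. Among the 26823 genes with at least 1 count, 9.72% separated the groups in this way. Without replicate 2 of the 3%-Axitinib group 9 members did so, against 14.9% of all genes with a count in the samples left. The number was 2 without replicate 3 of that group (13.7% of all genes) and without replicate 2 or 3 of the 0%-Axitinib group (12.2% and 18.4%).

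Ncam1 (chr9:49502136-49798925), a cell adhesion molecule of activated satellite cells, young or denervated fibres, nerve and Schwann cells, behaved unlike the others. It had 354, 148 and 650 counts in the 0%-Axitinib samples and 337, 741 and 440 in the 3%-Axitinib samples, or 18.4, 8.61 and 35.2 against 37.0, 67.3 and 25.4 CPM. Its highest value was in replicate 2 of the 3%-Axitinib group, the library of that group without muscle RNA in quantity, and the groups overlapped. The means were 20.7 ± 13.4 and 43.2 ± 21.6 CPM (SD, n = 3), and the log2 fold change was 1.06 with a standard error of 0.56 (adjusted p = 0.293), which missed the criterion. Of the 14 alternatives that changed 1 choice it was met without replicate 3 of the 0%-Axitinib group (1.67). With no expression filter and a second choice changed it was met in 2 of 12, without replicate 3 of the 0%-Axitinib group (1.64) and without replicate 3 of the 3%-Axitinib group (1.30). In the GRCm38 annotation 4.81% of its exon bases are shared with Gm11149 on the other strand, and the strand used in counting is not stated. The summed CPM of 12 nerve and Schwann cell genes was 1779, 759.7 and 347 in replicates 1, 2 and 3 without the drug and 2087, 2127 and 1791 with it. Of these 12 genes, all with counts in every sample and all tested, 2 rose and 0 fell by the criterion. The number that rose was 7 without replicate 1 of the 0%-Axitinib group, 1 without replicate 2 of that group or without any one of the 3%-Axitinib samples, 4 with DESeq2's Wald test and 5 with limma-voom or the replicate block. It was also 1 with total counts and with at least 10 counts in every sample. The smallest p was that of Ngfr, the p75 neurotrophin receptor of non-myelinating and repair Schwann cells (1.65 ± 1.27 and 11.6 ± 6.42 CPM, SD, n = 3, log2 fold change 2.80, adjusted p = 0.122), and the most abundant gene per kilobase was the myelin gene Pmp22. Replicate 3 of the 0%-Axitinib group had the lowest sum of the nerve list and the third highest CPM of Ncam1, and the part of these cells in the Ncam1 counts was not tested.

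**Figure D1:**
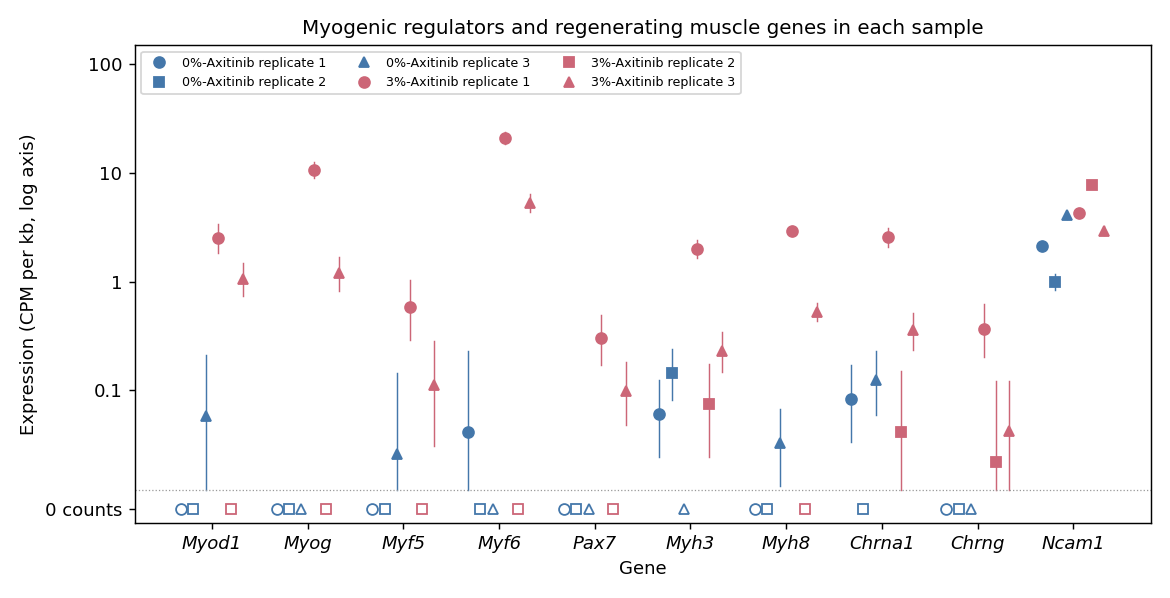
Expression of the 10 genes in each of the 6 samples, as CPM per kilobase of exon on a log axis. Filled symbols are measured values with 95% counting intervals (lines stop at the dotted line), open symbols are samples with 0 counts; 9 of the 10 genes are highest in replicate 1 of the 3%-Axitinib group, and Ncam1 is highest in replicate 2 of that group.

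In the fit over all 15257 tested genes, 8 of the 10 members were removed by the expression filter because fewer than 3 libraries had enough counts, and 0 of the 2 that remained met the criterion, which 21.2% of all tested genes met in either direction and 9.54% in the higher direction. Myh3 met it with DESeq2's Wald test, where 3588 genes in all did, and 0 of the 2 with limma-voom, where 2951 genes did. With one sample left out the filter asks for 2 libraries, and 7 members were tested in 4 of the 6 cases and 2 in the others. Those added (Myod1, Myog, Myf6, Myh8 and Chrna1) passed it through replicates 1 and 3 of the 3%-Axitinib group, where they were high, so their number is no support for a difference. The members that met the criterion were 4, 5 and 5 without replicate 1, 2 or 3 of the 0%-Axitinib group, where 21.7%, 16.7% and 28.2% of all tested genes met it. They were 6 without replicate 2 of the 3%-Axitinib group (17.2% of all tested genes), and 0 without replicate 1 or 3 of that group (14.9% and 15.5%). In these 6 fits the adjusted p of a member was at most 0.05 only for Myf6 without replicate 2 of the 3%-Axitinib group, where 0.364% of all tested genes reached it. With no filter, 9 of the 10 members met the criterion and were higher in the 3%-Axitinib group, all but Ncam1, against 6% of the 26823 genes with at least 1 count. The members were chosen with earlier results of these data known, so this number is no independent support. In the fit without the filter 0 of the 10 had an adjusted p of at most 0.05 (from 0.0929 for Myf6 to 0.334 for Ncam1, edgeR's quasi-likelihood test), against 0.0559% of all genes. This count depended on single libraries. It was 3 without replicate 1 of the 0%-Axitinib group (Myog, Myf6 and Myh8, against 5.98% of all genes) and 4 without replicate 3 of that group (Myod1, Myf6, Myh8 and Ncam1, against 8.51%). It was also 4 without replicate 2 of the 3%-Axitinib group (Myod1, Myog, Myf6 and Myh8, against 0.842%), and 0 without any of the other 3 samples. DESeq2's Wald test without the filter gave 3 such members (Myod1, Myf6 and Chrna1), with no adjusted p for 2 others, against 10.4% of the 16623 genes with an adjusted p (1734 genes). On simulated counts, drawn with edgeR's dispersions and tested with the filter, the adjusted calls of this test held a larger share of unchanged genes than those of edgeR. That setting differs from this fit without the filter, so how certain these calls are was not tested. With limma-voom there were 0, against 0.00746% of all genes. The count of 9 that met the criterion became 4 without replicate 1 of the 3%-Axitinib group (4.32% of all genes) and 5 with limma-voom (7.27%). For the same 9 members, the highest CPM values were those of replicates 1 and 3 of the 3%-Axitinib group.

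Per kilobase of exon, the order of the members in replicate 1 of the 3%-Axitinib group began with Myf6 at 21.1 CPM per kb (95% counting interval 18.5 to 23.9) and Myog at 10.6 (8.98 to 12.5). Ncam1 followed at 4.27 (3.82 to 4.75), then Myh8 at 2.92 (2.60 to 3.26), Chrna1 at 2.55 (2.08 to 3.10), Myod1 at 2.53 (1.83 to 3.41) and Myh3 at 1.99 (1.64 to 2.40). Chrna1 and Myod1 could not be separated from Myh8 or from Myh3 by their intervals. The lowest were Myf5 at 0.579, Chrng at 0.369 and Pax7 at 0.299 CPM per kb, whose intervals overlapped. In replicate 3, Myf6 was again first at 5.30 CPM per kb (4.38 to 6.36) and Ncam1 next at 2.93 (2.66 to 3.22), while Myog at 1.20 (0.813 to 1.70) did not differ from Myod1 at 1.05 (0.730 to 1.47) beyond its interval. Myog thus stood above Myod1 in one library and level with it in the other. For scale, Acta1 was at 2547 and 1202 CPM per kb in the same libraries.

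Among the heavy chains, adult isoforms made up nearly all counts where muscle RNA was plentiful. In replicate 1 of the 3%-Axitinib group, Myh4 (type IIB fibres) had 18987 counts, Myh1 (type IIX) 14858, Myh2 (type IIA) 3709 and Myh7 (type I) 99. In replicate 3 they had 37788, 8562, 1025 and 23 counts. Myh3 and Myh8 together were 423 of the 38076 counts of these 6 genes in replicate 1, or 1.11% (exact Clopper-Pearson interval 1.01% to 1.22%), and 131 of 47529 in replicate 3, or 0.276% (0.230% to 0.327%). The share was larger in replicate 1 than in replicate 3 beyond counting error, and it was 0.737% and 0.168% when counts were taken per kilobase. In replicate 1 of the 0%-Axitinib group, the sample of that group with the most counts of the 6 genes, 7 of 919 counts were developmental, or 0.762% (0.307% to 1.56%), an interval that holds the share of replicate 1 of the 3%-Axitinib group. Per kilobase the order of these 2 samples turned, with 0.767% in replicate 1 of the 0%-Axitinib group against 0.737%. In the other 3 samples the 6 genes had few counts, of which a larger share was developmental. It was 15 of 27 counts in replicate 2 of the 0%-Axitinib group, or 55.6% (35.3% to 74.5%), all of Myh3, and 7 of 23 in replicate 3, or 30.4% (13.2% to 52.9%), all of Myh8. In replicate 2 of the 3%-Axitinib group it was 5 of 9 counts, or 55.6% (21.2% to 86.3%), all of Myh3. These 3 intervals lay above those of the libraries with muscle RNA in quantity, and the groups overlapped in this share. Acta1 had only 5, 1 and 1 counts in these 3 samples. Whether their few heavy chain counts came from muscle was not tested, so a larger share there is no measure of regenerating muscle.

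The receptor subunits gave a different picture of the same libraries. Chrne, the epsilon subunit that replaces gamma in the adult receptor, had 4, 10 and 12 counts in the 0%-Axitinib samples and 0, 0 and 8 in the 3%-Axitinib samples. It did not follow the muscle RNA, and all its counts were low. In replicate 1 of the 3%-Axitinib group the gamma subunit had 14 counts and epsilon 0, and in replicate 3 gamma had 3 and epsilon 8. Chrnd, the delta subunit, had 33, 0 and 3 counts in the 3%-Axitinib samples and 0 in the others, which was at least 17.6-fold higher against 3 counts over the 0%-Axitinib group, while the exact interval of the ratio began at 13.6. Without replicate 1 its 3 counts were at the limit of detection. Chrnb1, the beta subunit, was present everywhere, with 97, 104 and 116 counts against 211, 32 and 157, and its log2 fold change of 1.01 with a standard error of 0.67 (adjusted p = 0.386) missed the criterion, which it met without replicate 2 of the 3%-Axitinib group. Musk, the receptor kinase that organises the synapse, had 7, 7 and 0 counts against 23, 3 and 17.

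The libraries with muscle RNA differed from each other in the members. They were chosen for this comparison after their values were seen, and it compares 2 libraries of one group, not conditions. Relative to the counts of the mature fibre list (176565 in replicate 1 and 189511 in replicate 3 of the 3%-Axitinib group), 6 of the 10 members had more counts in replicate 1, with exact conditional intervals above 1. Of the 21740 genes with a count in either library 2.18% had such an interval, where a gene at equal CPM in both libraries would have a ratio of 0.565. The ratio was 5.02 for Myog (3.39 to 7.66), 5.01 for Chrng (1.40 to 27.2), 4.92 for Myh3 (3.14 to 8.0), 4.05 for Chrna1 (2.63 to 6.45), 3.14 for Myh8 (2.51 to 3.95) and 2.25 for Myf6 (1.79 to 2.83). For Myod1 (1.36, 0.846 to 2.19), Myf5 (2.95, 0.875 to 12.7) and Pax7 (1.72, 0.733 to 4.23) the interval included 1. The intervals of Myog and Myod1 did not overlap. Ncam1 had a ratio of 0.822 (0.711 to 0.950). Fibre genes themselves were not at 1 throughout: in the list of 28, the interval lay above 1 for 14, below 1 for 11 and around 1 for 3 genes, with ratios from 0.539 for Myh4 to 4.62 for Myh7. In the list of 20 genes of commitment, fusion and early differentiation the interval lay above 1 for 10, below 1 for 5 and around 1 for 5. Some had ratios above those of all 28 fibre genes, among them Actc1, the cardiac alpha-actin also made in developing muscle (6.75, 4.24 to 11.3), Tnnt2, the cardiac troponin T also made there (8.42, 5.58 to 13.2), and Ankrd1, an ankyrin repeat protein of stressed muscle (14.4, 8.90 to 24.7). Igfn1 had 42 counts and 1 count (45.1, 7.66 to 1822). These 4 genes were named after their ratios were seen. The part of fibre type in the members' ratios was not tested. Chrnd had a ratio of 11.8 (3.70 to 60.2), Chrnb1 1.44 (1.17 to 1.78) and Musk 1.45 (0.742 to 2.90). Chrne went the other way, with 0 and 8 counts and an interval of the ratio from 0 to 0.629. Of 17 neuromuscular genes the interval lay above 1 for 5, below 1 for 5 and around 1 for 7. Of 12 satellite cell genes these numbers were 3, 1 and 8.

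**Figure D2:**
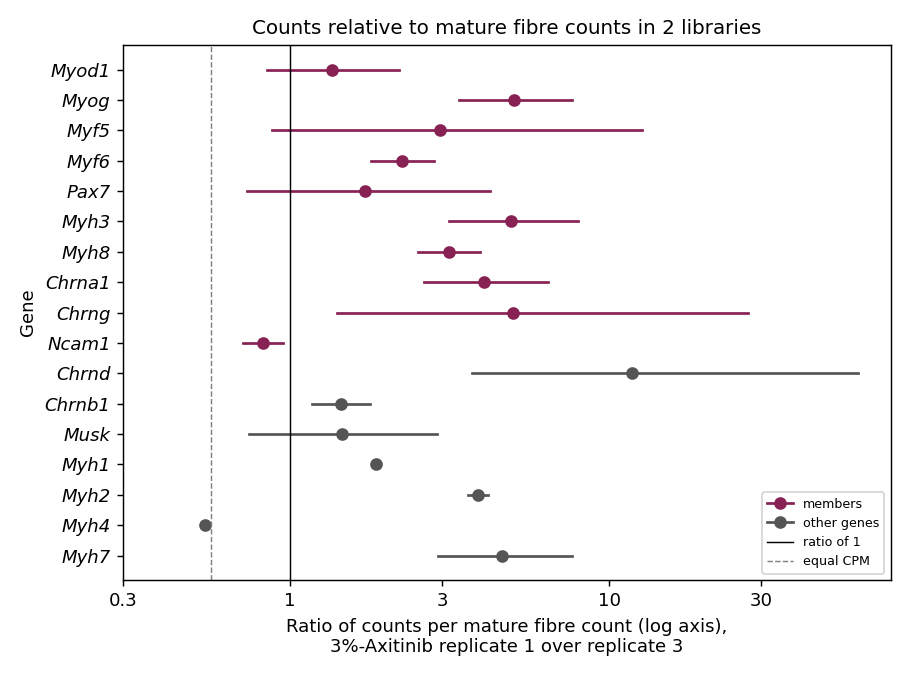
Ratio of counts per mature fibre count in replicate 1 over replicate 3 of the 3%-Axitinib group, on a log axis, for the 10 members and 7 related genes. Points are ratios and lines are exact 95% counting intervals; Myog, Myh3, Myh8, Myf6, Chrna1 and Chrng lie above 1, and Myh4 lies at 0.539, close to the dashed line of equal CPM at 0.565.

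All 10 members together made 84.6, 229.9 and 482 counts per 1000 mature fibre counts in the 0%-Axitinib samples and 7.56, 1105 and 4.20 in the 3%-Axitinib samples, figures set by Ncam1, which does not follow the fibre genes. Without Ncam1, a choice made after its values were seen, they were 3.44, 21.2 and 14.4 against 5.65, 11.8 and 1.88 per 1000. The values of the 0%-Axitinib samples and of replicate 2 rest on 15, 15, 20 and 8 member counts. The fibre list differed in make-up too. It held 709 and 1390 counts in replicates 2 and 3 of the 0%-Axitinib group and 678 in replicate 2 of the 3%-Axitinib group. Of these, Eno3 made 222, 455 and 277 and Acta1 5, 1 and 1. Values of those samples therefore cannot be read as levels per muscle fibre. Per count of the fibre list, replicates 1 and 3 of the 3%-Axitinib group lay below all 0%-Axitinib samples with all 10 members. Without Ncam1, replicate 1 lay within the range of the 0%-Axitinib samples, and replicate 3 had the lowest value. Replicate 1 of the 0%-Axitinib group was 1.83 times as high as replicate 3 of the 3%-Axitinib group (exact conditional interval 1.01 to 3.06) and 0.609 times as high as replicate 1 of that group (0.339 to 1.01).

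Other genes of the myogenic programme gave a mixed account. Of 20 genes of commitment, fusion and early differentiation, 14 were tested, of which 5 rose and 0 fell by the criterion (median log2 fold change of the tested genes 1.60, against -0.03 over all tested genes). The smallest p was that of Csrp3, a LIM protein of striated muscle, with 6, 0 and 14 counts against 1058, 0 and 345 (log2 fold change 6.94, standard error 2.12, adjusted p = 0.133). The most abundant gene per kilobase was Mef2d, which is expressed in many tissues (128 ± 44.3 and 111 ± 35.3 CPM, SD, n = 3). Of the fusion proteins, Tmem8c (myomaker) had 34, 0 and 11 counts in the 3%-Axitinib samples and 0 in the others, and Gm7325 (myomerger) had 40, 0 and 42 counts against 3, 1 and 0. In replicate 1 of the 3%-Axitinib group they were at 2.47 (1.71 to 3.45) and 4.27 (3.05 to 5.82) CPM per kb, near Myod1 and Ncam1 and above Myf5, Chrng and Pax7. In replicate 3 they were at 0.420 (0.210 to 0.752) and 2.36 (1.70 to 3.19) CPM per kb. They were named after their values were seen. The list's count of 5 became 0 without replicate 1 of the 3%-Axitinib group, 3 without replicate 2 of the 0%-Axitinib group or with the replicate block, and 8 without replicate 2 of the 3%-Axitinib group. It was 10 without the expression filter, and 1 with limma-voom or when every sample had to hold 10 counts.

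The satellite cell list did not move as one. Of its 12 genes, 9 were tested, 2 rose (Sdc4 and Itga7) and 2 fell (Vcam1 and Msc), with a median log2 fold change of -0.28. The number that rose was 4 without replicate 3 of the 0%-Axitinib group and 1 without replicate 1 of the 3%-Axitinib group or with total counts, and 1 fell with at least 10 counts in every sample. The call of Itga7 ended without replicate 2 or 3 of the 0%-Axitinib group, without replicate 1 of the 3%-Axitinib group and with total counts. Sdc4, a heparan sulfate proteoglycan of satellite and many other cells and the list's most abundant gene per kilobase, rose from 96.9 ± 7.46 to 231 ± 82.1 CPM (SD, n = 3, log2 fold change 1.26, adjusted p = 0.0973), and it was higher in all 3 of the 3%-Axitinib samples (322, 211 and 161 CPM), replicate 2 lying above replicate 3. Vcam1, an adhesion molecule also made by activated endothelium, fell from 121 ± 85.1 to 25.6 ± 12.3 CPM (log2 fold change -2.25, adjusted p = 0.104). Of the 12 genes, 6 were highest in replicate 1 of the 3%-Axitinib group, where muscle RNA was highest, 2 in replicate 2 of that group and 4 in 0%-Axitinib samples. Itga7, the integrin alpha 7 chain of satellite cells and fibres, had 25.2, 12.97 and 12.5 CPM against 57.5, 26.9 and 27.2, higher in all 3%-Axitinib samples (log2 fold change 1.14, standard error 0.42, adjusted p = 0.173). Fgfr4, a growth factor receptor of myogenic cells, had 2, 2 and 1 counts against 32, 5 and 23. Its groups did not overlap, the filter removed it, and it was higher by the criterion without the filter. Calcr, the calcitonin receptor, listed here for quiescent satellite cells, had 129, 140 and 84 counts against 2, 130 and 67. It was lowest in the library with the most muscle RNA. Pax7 had 0 counts in all 0%-Axitinib samples and in replicate 2 of the 3%-Axitinib group. Which cells held the Calcr RNA was not tested. Itga7, Fgfr4, Msc and Calcr were named after their values were seen.

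Of 18 neuromuscular and denervation genes, 13 were tested, 3 rose (Trim63, Lrp4, the agrin receptor, and Scn4a, the sodium channel of muscle) and 0 fell (median log2 fold change 0.25). Trim63, a ubiquitin ligase of muscle atrophy, was the most abundant per kilobase and had the smallest p, with 21, 2 and 1 counts in the 0%-Axitinib samples and 4580, 28 and 4485 in the 3%-Axitinib samples (log2 fold change 9.18, standard error 2.04, adjusted p = 0.0972). Its counts per mature fibre count differed between replicates 1 and 3 of the 3%-Axitinib group by a ratio of 1.10 (1.05 to 1.14). This was less than the ratios of the 6 members whose intervals lay above 1. The number that rose was 1 without replicate 1 of the 0%-Axitinib group or when every sample had to hold 10 counts, 6 without the expression filter and 0 with limma-voom. It was 2, with Trim63 among them, without replicate 2 of the 0%-Axitinib group or replicate 1 or 3 of the 3%-Axitinib group. Lrp4 had 18.7, 25.6 and 21.2 CPM against 27.6, 133 and 39.0, highest in replicate 2 of the 3%-Axitinib group, the library without muscle RNA in quantity. Its call ended without that replicate, without replicate 1 or 3 of the 0%-Axitinib group and with limma-voom. Scn4a had 5, 0 and 14 counts against 181, 0 and 194. Its call ended without replicate 1 or 2 of the 0%-Axitinib group, without replicate 1 or 3 of the 3%-Axitinib group, with at least 10 counts in every sample and with limma-voom. A gene fell in 4 alternatives, Ache, the acetylcholinesterase, without the filter or without replicate 1 or 2 of the 0%-Axitinib group, and Agrn (agrin) without replicate 3 of that group. Lrp4, Scn4a, Ache and Agrn were named after their values were seen.

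Markers of other cells related to muscle were also summed. For 6 genes of brown fat, which arises in part from precursors shared with muscle, the summed CPM was 8.02, 4.48 and 9.75 without the drug and 15.1, 17.8 and 10.8 with it, higher in all 3%-Axitinib samples but low throughout. Zic1, the most abundant per kilobase, had 3.90, 1.10 and 7.91 CPM against 7.90, 14.8 and 5.83, and its groups overlapped. Elovl3, a fatty acid elongase, went the other way, with 5, 11 and 2 counts against 0, 0 and 0, and was named after its values were seen. Of these brown fat genes, 3 were tested and 0 met the criterion, while 1 was higher by it without replicate 1 or 3 of the 0%-Axitinib group (Prdm16 and Zic1) and without replicate 2 of the 3%-Axitinib group (Cidea). Elovl3 was lower by it without the expression filter, and Ucp1, the defining marker, had 3 counts over the 0%-Axitinib group and 2 over the 3%-Axitinib group. For 8 genes of smooth and cardiac muscle it was 229, 81.3 and 176 against 291, 299 and 151, led by Acta2, and the groups overlapped. Of these genes, 6 were tested and 1 met the criterion, narrowly, Myh6 (0.765 ± 0.604 and 2.60 ± 1.71 CPM, SD, n = 3, log2 fold change 1.74, adjusted p = 0.213). This call ended with total counts, with no filter, with at least 10 counts in every sample, and without replicate 2 or 3 of the 0%-Axitinib group or replicate 1 or 3 of the 3%-Axitinib group. In these fits 0 genes of the list were higher, except 2 (Smtn and Tnni3) without replicate 3 of the 0%-Axitinib group. The atrial markers Nppa and Myl7 had 7 and 0 counts over all samples. Ucp1, Nppa, Myl7, Prdm16, Cidea, Smtn and Tnni3 were named after their values were seen.

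Over the 6 samples, the genes whose log2 CPM was most like that of the tested members, among 14339 tested genes of at least 1 CPM on average, were Bnip3 (r = 0.988), Zrsr1 (0.987) and Ktn1 (0.981) for Myh3, and Acat1 (0.997), 0610037L13Rik (0.995) and Gm12663 (0.990) for Ncam1. These are descriptions of 6 points that share library depth and composition, picked as the highest of many.

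Sequences of 7 of the 10 members were matched by symbol in a RefSeq promoter table of GRCm38.p6 (Chrng, Myog, Chrna1, Pax7, Myf5, Myh3 and Myh8). The myogenic regulatory factors bind E-boxes, written CANNTG, which read the same on both strands. The window of 235 bases from 250 to 16 bases before each start was searched, and it held at least 1 E-box in 64.1% of all 32851 promoters of the table and at least 3 in 10.8%. The form CAGCTG, part of CANNTG and counted after the other values were seen, was held by 12.1%. Shown are the 5 of these members whose window lies outside the annotated gene, all highest in the same libraries, 5′ to 3′ on the gene's strand with E-boxes in capitals: Myog (chr1:134289754-134289988, plus strand), Chrna1 (chr2:73580354-73580588, minus strand), Myf5 (chr10:107486150-107486384, minus strand), Myh3 (chr11:67078050-67078284, plus strand) and Myh8 (chr11:67276874-67277108, plus strand).
Myog: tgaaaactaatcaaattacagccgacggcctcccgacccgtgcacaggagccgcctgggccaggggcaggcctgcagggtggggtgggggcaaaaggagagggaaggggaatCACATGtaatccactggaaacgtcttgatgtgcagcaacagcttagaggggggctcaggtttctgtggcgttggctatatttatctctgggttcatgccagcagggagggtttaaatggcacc
Chrna1: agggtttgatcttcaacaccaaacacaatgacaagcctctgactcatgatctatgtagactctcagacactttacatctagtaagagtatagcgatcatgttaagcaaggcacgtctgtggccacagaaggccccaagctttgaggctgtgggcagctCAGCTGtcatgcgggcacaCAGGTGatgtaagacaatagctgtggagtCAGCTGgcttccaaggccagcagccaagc
Myf5: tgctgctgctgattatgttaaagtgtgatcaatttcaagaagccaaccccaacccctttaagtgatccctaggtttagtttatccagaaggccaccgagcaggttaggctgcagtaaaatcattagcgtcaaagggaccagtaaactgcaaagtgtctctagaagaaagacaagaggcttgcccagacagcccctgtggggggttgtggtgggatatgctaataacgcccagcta
Myh3: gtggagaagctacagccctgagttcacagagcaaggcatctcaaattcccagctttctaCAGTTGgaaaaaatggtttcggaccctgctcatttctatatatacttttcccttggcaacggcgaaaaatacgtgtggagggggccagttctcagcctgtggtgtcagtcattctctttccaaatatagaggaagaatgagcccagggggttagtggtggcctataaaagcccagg
Myh8: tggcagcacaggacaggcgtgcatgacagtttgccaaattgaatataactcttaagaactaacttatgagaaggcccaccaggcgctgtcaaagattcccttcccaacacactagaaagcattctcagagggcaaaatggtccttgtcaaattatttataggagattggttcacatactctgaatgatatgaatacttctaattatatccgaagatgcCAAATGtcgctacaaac
Myog, Myh3 and Myh8 held 1 E-box each in this window, and Chrna1 held 3, of which 2 were CAGCTG. Chrng held 3 as well, and Pax7 and Myf5 held 0. A match is a description of letters only, and binding was not measured.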

How the data were processed

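Per the study's methods, poly(A) RNA was sequenced, reads were filtered with fastp and mapped to mm10 (GRCm38) with STAR (2.5.2b in the submitters' processing notes), and the authors deposited raw counts per gene symbol, used here without change. The annotation release and the strand of counting are not given in the sources used here. The 4 lines of reads on no gene were kept out (unmapped, 3.84% to 48.4% of reads; several places, 2.71% to 6.65%; no gene, 3.17% to 6.14%; more than 1 gene, 3.55% to 5.74%). Genes were tested in R 4.3.3 with edgeR 4.0.16 (filterByExpr with a minimum count of 10 and total of 15, TMM, quasi-likelihood test, group only), with Benjamini-Hochberg adjustment over all tested genes. The study's criterion was a fold change of at least 1.5 with p of at most 0.05, taken as unadjusted. Alternatives were DESeq2 1.42.0 (size factors, Wald test), limma 3.58.1 (voom), total counts, TMM without muscle genes, other filters, a replicate block and each sample left out. Tests were tried on simulated data. Lengths and positions came from the GENCODE annotation of GRCm38, and promoters from RefSeq. Ratios between libraries have exact conditional intervals, levels exact Poisson intervals. Plots were made in Python 3.11.15 (matplotlib 3.10.9).

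The members and the 7 other lists (mature fibre, myogenic differentiation, satellite cell, neuromuscular, nerve and Schwann, brown fat, smooth and cardiac muscle) were chosen with earlier results of these data known. Named were all members, the most abundant gene of each list per kilobase and its gene of smallest p past the criterion in each direction, the sister subunits and isoforms, Musk, and the 3 genes most like each tested member. After the data were seen, ratios between the groups were also taken without each 3%-Axitinib sample. Others are said to be named after their values were seen. Pearson's r used log2 CPM with a prior count of 2.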

Additional observations from a re-analysis of the deposited data

How the results depend on the processing

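The criterion was met by 3241 genes and, of the members, by 0. With adjusted p of at most 0.05 the count over all genes was 1 and over the members 0. Members meeting it numbered 1 with DESeq2's Wald test (3588 genes in all) and 9 with no expression filter (4143 genes in all). They numbered between 0 and 6 when 1 sample was left out. The number was 0 under the other normalizations and filter, and with limma-voom (2951 genes in all). Leaving out one sample gave between 2365 and 4422 genes. Without the filter, 5 members met the criterion with limma-voom (7.27% of all genes in the higher direction). With 1 sample left out the number was lowest at 4, without replicate 1 of the 3%-Axitinib group (4.32%). It was highest at 10, without replicate 3 of the 0%-Axitinib group (9.54%) or of the 3%-Axitinib group (4.68%). Leaving out a sample changes the filter and the data together, and the cause was not tested. Members higher in every 3%-Axitinib sample numbered between 1 and 9 with one sample left out. Without Acta1, the members made 99.9, 9.47 and 5.05 counts per 1000 fibre counts in replicate 1 of the 0%-Axitinib group, then in 3%-Axitinib replicates 1 and 3, by construction of the smaller denominator, and the ratios of the 10 members between the last 2 libraries stayed within their intervals. The log2 fold change was between 1.18 and 4.57 for Myh3 over 13 alternatives (4 past the criterion) and between 0.59 and 1.67 for Ncam1 over 14 (1 past it), each changing 1 choice. With no filter and a second choice changed, 9 and 2 of 12 were past it. With a filter of at least 10 counts in every sample Myh3 was not tested. The number of higher genes past the criterion lay between 1 and 26 for the mature fibre list, 0 and 10 for myogenic differentiation, 1 and 4 for satellite cells, 0 and 6 for the neuromuscular list, 1 and 7 for nerve and Schwann cells, 0 and 1 for brown fat and 0 and 2 for smooth and cardiac muscle, and the number of lower genes between 1 and 3 for satellite cells, 0 and 1 for the neuromuscular list and for brown fat, and 0 for the others. Total counts without a composition factor moved the split of calls to 998 higher of 3435, against 1456 of 3241, and the median log2 fold change of all tested genes from -0.03 to -0.16.

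With the replicate number as a block, 2603 genes and 0 members met the criterion. Without the filter, the block ended the calls of Myf5 and Myh3. Deviations of samples with the same number correlated at 0.18, -0.12 and -0.17, so the numbers were not taken to pair the samples. Counts under 20, which most members have outside replicates 1 and 3 of the 3%-Axitinib group, limit what can be said of the other samples.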
